A study of Drosophila melanogaster with 4 samples.

Results

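The pickpocket genes of *Drosophila melanogaster* encode the fly's degenerin and epithelial sodium channel family. The members were taken as every gene row whose FlyBase symbol is ppk alone or ppk with a number, together with ripped pocket (rpk) and Nach, which gave 31 of the 17409 gene rows. Poly(A) RNA had been sequenced from 2 tissues of adult males of the Oregon-R-modENCODE wild-type strain, aged 4 to 5 days raised at 25 °C under constant light and kept apart from females after their first day. The testis group was dissected testes, and the seminal vesicle group was seminal vesicles with the terminal epithelium that joins them to the testis. There were 2 libraries per tissue, from dissections on 2 consecutive days. No mutation, transgene or treatment entered the design, and how many males went into a library is not given in the sources used here. The comparison asks which transcripts distinguish the organ that makes sperm from the sac that stores it.

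Channels of this family are sodium-permeable, assembled from several subunits, and blocked by amiloride. Each subunit has a membrane-spanning segment towards either end and a large, cysteine-rich extracellular loop between them. In flies they are best known from sensory neurons, where named members serve touch and pain, salt and water taste, and the detection of courtship pheromones on another fly's cuticle, and from the tracheal epithelium and the motor nerve terminal. Ripped pocket was originally described from gonads and early embryos.

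Depth ran from 14088989 to 15528462 gene counts in testis and from 11120405 to 13385256 in seminal vesicle. Levels are given in CPM, the usual unit of counts scaled to a common library total, here after TMM scaling, which adjusts each library for its composition. A gene without a count could lie anywhere below a floor of 3 counts, which is 0.175 and 0.181 CPM in the testis libraries and 0.245 and 0.321 CPM in the seminal vesicle libraries (counting error only). Across 11737 genes, which are not independent of each other, log levels of replicates correlated at 0.993 in testis and 0.978 in seminal vesicle, and those of libraries from different tissues at 0.402 to 0.504. All 14 male germline markers tested passed towards testis, and 6 of 7 muscle markers and all 5 ejaculatory duct and bulb markers passed towards seminal vesicle. Of all genes tested, 44.5% passed towards testis and 42.1% towards seminal vesicle. Germline RNA was still countable in seminal vesicle and differed between its libraries: the summed level of the 14 markers was 11054 and 11526 CPM in testis, 613 CPM in seminal vesicle replicate 1 and 1287 CPM in replicate 2. A negative log2 fold change means a higher level in testis, each is given ± its standard error, and every adjusted p is Benjamini-Hochberg adjusted over all genes tested by the quasi-likelihood method of edgeR. In bulk tissue, fewer cells of a type and less RNA per cell cannot be told apart.

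Most of the family was at or near the limit of detection in both tissues. No read was counted in any library for 9 members, and 13 more had counts but too few to be tested. The 9 tested members were rpk, ppk3, ppk5, ppk6, ppk10, ppk16, ppk19, ppk28 and ppk30. Of these, 6 (rpk, ppk5, ppk6, ppk10, ppk19 and ppk30) were higher in testis, 2 (ppk3 and ppk16) were higher in seminal vesicle, and ppk28 did not pass the test. Among all 11737 genes tested, 86.6% were called, 44.5% towards testis and 42.1% towards seminal vesicle, so a share of 8 called among 9 is close to that of genes in general. The median log2 fold change was -2.44 for the 9 tested members and -0.11 for all genes tested. The low-count filter itself shaped this set: ppk5 and ppk19 passed it through testis alone and ppk3 and ppk16 through seminal vesicle alone, and these 4 members had to differ, while 5 passed through both tissues. With at least 10 counts required in both libraries of a tissue, 7 members were detected in testis and 7 in seminal vesicle, and 5 of them (ppk6, ppk10, ppk28, ppk30 and rpk) in both.

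**Figure D1:**
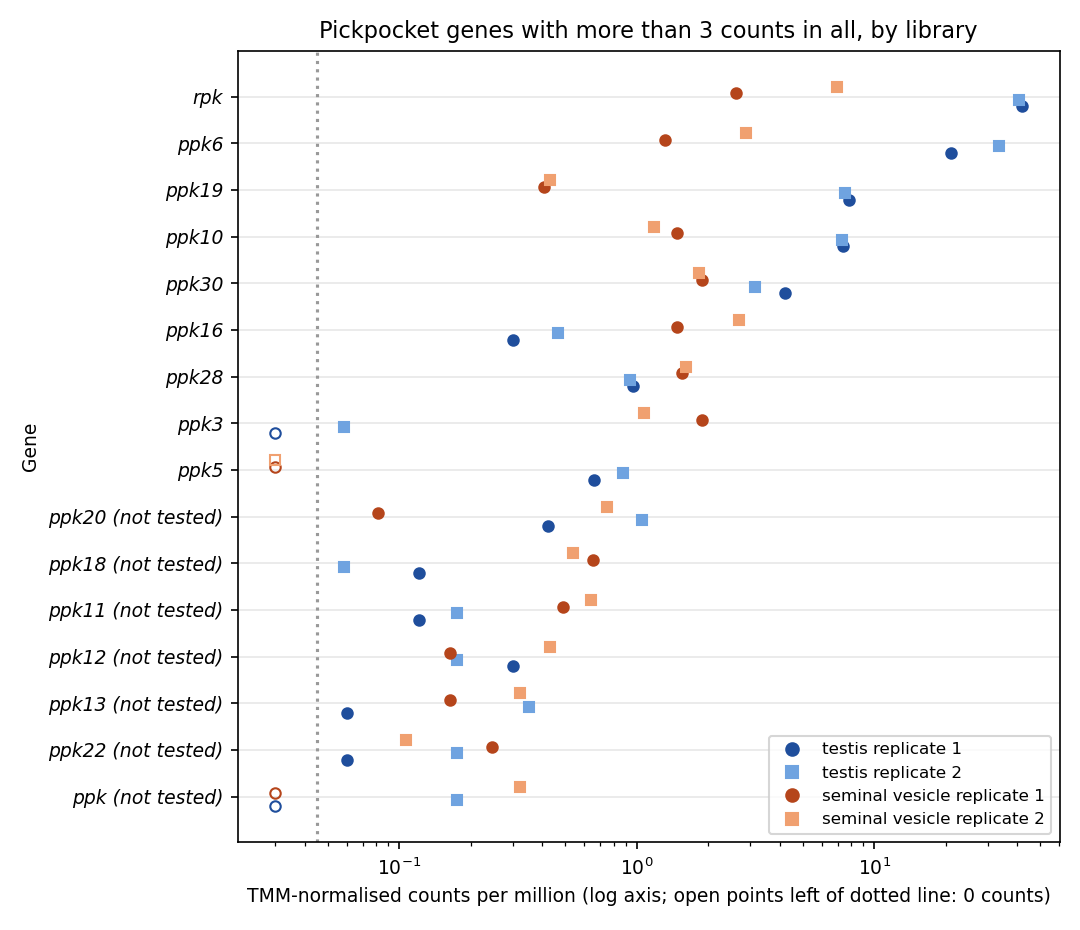
TMM-normalised level in CPM (log axis) of the 16 pickpocket genes with more than 3 counts in all, with a point for each of the 4 libraries (blue, testis; orange, seminal vesicle; open points, 0 counts). The testis points of rpk, ppk6, ppk19, ppk10 and ppk30 lie to the right of their seminal vesicle points, and those of ppk16 and ppk3 lie to the left.

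Summed over the 31 members, the family took 1422 and 1653 counts in testis and 179 and 205 in seminal vesicle, or 85.8 and 96.4 CPM against 14.6 and 22.0 CPM. Both testis libraries stood above both seminal vesicle libraries. In testis most of that sum belonged to a pair of genes, rpk and ppk6, which together made 73.6% and 76.6% of the family's counts. In seminal vesicle the same pair made 26.8% in replicate 1 and 44.9% in replicate 2.

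Ripped pocket had the most counts of any member. The gene (FBgn0022981) lies on chromosome 3R of the Release 6 assembly, from 4645981 to 4648884 on the plus strand, and codes for 568 residues. Its level was 42.0 and 40.5 CPM in the testis libraries and 2.61 and 6.97 CPM in the seminal vesicle libraries. The testis libraries were nearly equal, the seminal vesicle libraries were far apart, and the tissues did not overlap. Testis stood 8.87-fold higher (log2 fold change -3.15 ± 0.40, adjusted p = 0.000642). The excess was 15.8-fold without seminal vesicle replicate 2 and 5.92-fold without replicate 1, and the call was kept in both cases. Of the exon bases of rpk, 60.4% are shared with a noncoding gene on the other strand, asRNA:CR44155, which was itself counted at 8.2 and 10.9 CPM in testis and at 0.163 and 0.321 CPM in seminal vesicle (log2 fold change -5.31 ± 0.42, adjusted p = 9.17e-05). Whether HTSeq counted by strand is not given in the sources used here. The counts behaved as strand-specific ones among genes lying inside an exon of another gene: a total of 10 counts or above was reached by 73 of 116 such genes where the enclosing exon was on the other strand, and by 0 of 101 where it was on the same strand.

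The second member by testis counts was ppk6 (FBgn0034489; 2R, 20245760 to 20247624, minus strand), a gene of 498 residues whose function is not well described. It stood at 21.0 and 33.4 CPM in testis and at 1.31 and 2.89 CPM in seminal vesicle. Replicates differed within each tissue, and every testis value was above every seminal vesicle value. The change was 13.4-fold (log2 fold change -3.74 ± 0.41, adjusted p = 0.000357), and 20.7-fold without seminal vesicle replicate 2. Per kilobase of exon, rpk and ppk6 were level with each other in testis, at 16.3 ± 0.416 and 16.7 ± 5.36 CPM per kilobase (SD, n = 2). Both stood above most annotated genes there: 77.4% of 17172 genes were lower than rpk and 77.8% lower than ppk6. Those 17172 include genes without a count. Of all gene rows, 13713 and 13827 had a count in testis replicates 1 and 2.

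A second tier in testis was formed by ppk19 and ppk10. The ppk19 gene, which has been tied to salt taste together with ppk11, lies on 3R (FBgn0039679; 29672456 to 29674223, plus strand). Its level was 7.84 and 7.53 CPM in testis and 0.408 and 0.429 CPM in seminal vesicle, where it had 5 and 4 counts. Of its exon bases, 14.1% lie opposite exons of Bub3 on the other strand. Replicates were close in both tissues and the tissues were far apart: ppk19 was 18.0-fold higher in testis (log2 fold change -4.17 ± 0.31, adjusted p = 7.78e-05). For ppk10 (FBgn0065110; 2L, 10450134 to 10452396, minus strand) the levels were 7.36 and 7.29 CPM in testis and 1.47 and 1.18 CPM in seminal vesicle. It was higher in testis in both libraries, by 5.45-fold (log2 fold change -2.44 ± 0.26, adjusted p = 0.000278). Per kilobase of exon in testis, ppk19 stood at 5.0 ± 0.145 and ppk10 at 4.43 ± 0.0282 CPM, with 62.1% and 60.3% of annotated genes below them. These shares also include genes without a count, and from the top the 2 genes ranked 6515 and 6816 of 17172.

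The remaining testis-high members were ppk30 and ppk5, both low. The ppk30 gene (FBgn0039677; 3R, 29669149 to 29671478, plus strand) stood at 4.22 and 3.15 CPM in testis and 1.88 and 1.82 CPM in seminal vesicle. The groups did not overlap, but the change was small, 1.98-fold (log2 fold change -0.99 ± 0.30, adjusted p = 0.0209). Its call was lost with DESeq2 (adjusted p = 0.0622) and without either testis library (0.262 without replicate 1 and 0.0987 without replicate 2). For ppk5 (FBgn0053289; 3L, 21534660 to 21536861, plus strand) there were 11 and 15 counts in testis and 0 in both seminal vesicle libraries. That makes ppk5 at least 5.55-fold higher in testis against a floor of 3 counts over both seminal vesicle libraries (adjusted p = 0.00415). Its testis level was 0.663 and 0.875 CPM.

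**Figure D2:**
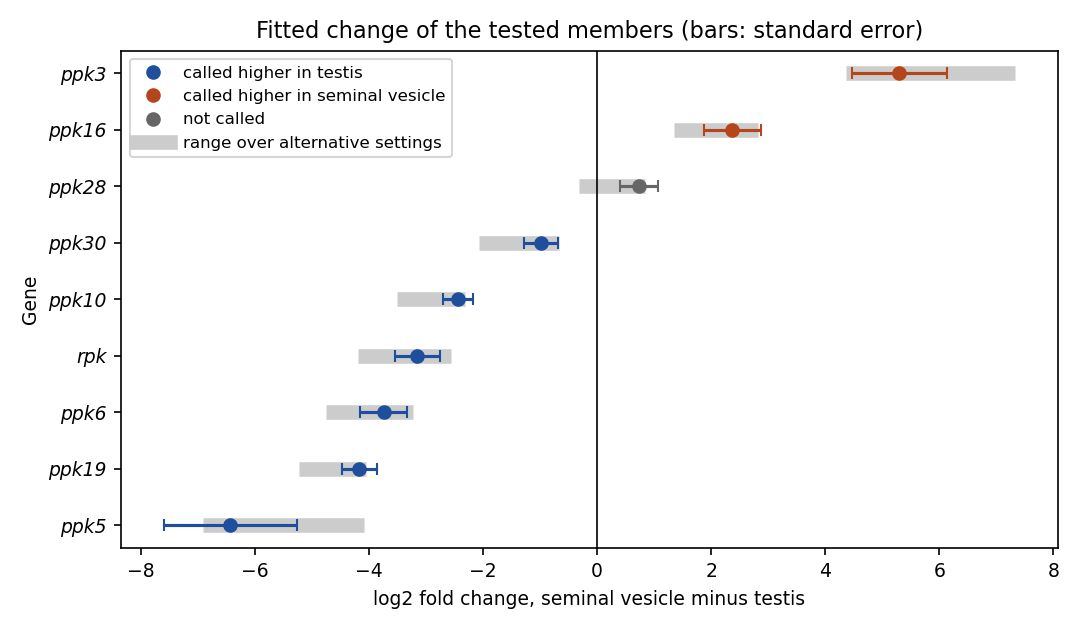
Log2 fold change, seminal vesicle minus testis, of the 9 tested members with the standard error (points and bars), coloured by call, over the range of the same value under the alternative settings (grey). The values run from -4.17 for ppk19 to 2.37 for ppk16 among members with more than 3 counts in both tissues, and the grey range of ppk28 alone crosses 0. The values of ppk5 and ppk3 rest on 0 and 1 counts in the lower tissue and are not sizes of effect.

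Testis-high members differed in how much of their level was left in seminal vesicle. In seminal vesicle replicates 1 and 2, ppk6 stood at 4.8% and 10.6% of its mean testis level and rpk at 6.33% and 16.9%, both higher in replicate 2. The 14 germline markers stood at a median of 1.84% and 4.12%, and 12 of them were higher in replicate 2. The exceptions were vas (11.4% and 3.75%) and aly (0.629% and 0.0%), which were named after their values were seen. In the other members no such difference was seen: ppk19 stood at 5.31% and 5.58%, ppk10 at 20.1% and 16.1%, and ppk30 at 50.9% and 49.4%. These values rest on 5 and 4 counts for ppk19, 18 and 11 for ppk10, and 23 and 17 for ppk30. For ppk19 that is too few to tell the absence of a difference from one of the size seen for ppk6. The germline markers themselves ranged from 0.0% to 13% in replicate 1 and from 0.0% to 24.4% in replicate 2. The spermatid genes dj (10.9% and 22.4%) and Mst87F (13% and 24.4%) were above rpk, ppk6 and ppk19 in both libraries, while w-cup stood at 3.68% and 9.64%. No marker was above ppk10 or ppk30 in both libraries, and ppk5 had no counts there. The part of germline RNA in the seminal vesicle values of rpk and ppk6 was not tested.

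**Figure D3:**
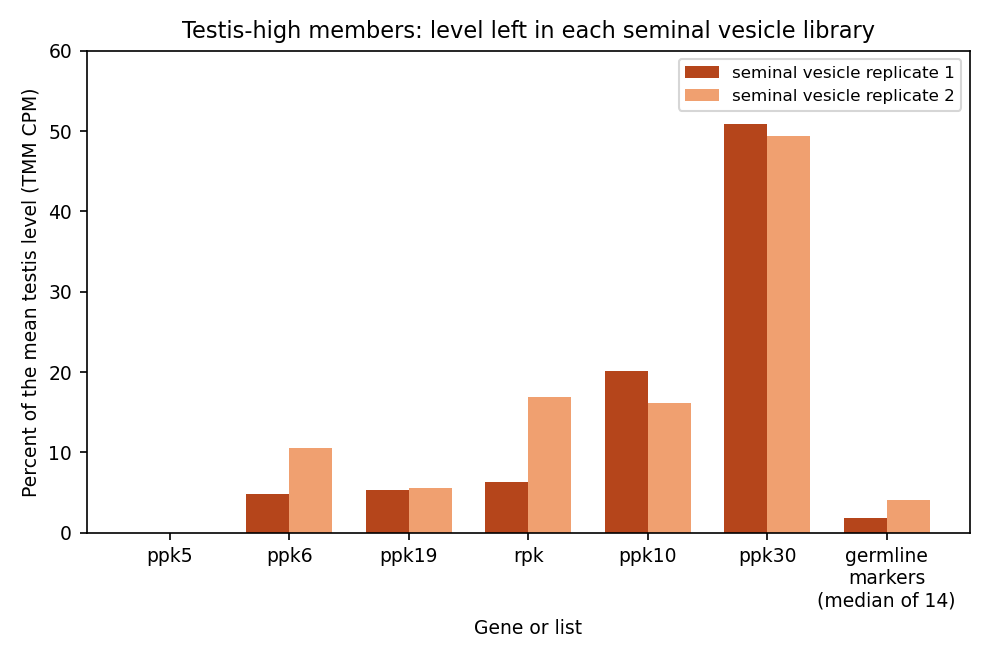
Level of the 6 testis-high members in each seminal vesicle library as a percentage of the mean testis level (TMM CPM, bars from 0), beside the median of the 14 germline markers. Bars of replicate 2 are taller for ppk6, rpk and the germline median, and the bars of ppk19, ppk10 and ppk30 differ little or the other way. ppk5 had 0 counts in both libraries, and the bars of ppk19 rest on 5 and 4 counts.

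On the seminal vesicle side, ppk16 was the member with the most counts. It is known, with ppk11, from the motor nerve terminal, where both are needed for homeostatic adjustment of transmitter release, and the 2 genes are annotated over the same exons of one transcript unit (2L, 9771155 to 9775030, minus strand). The level of ppk16 was 0.302 and 0.467 CPM in testis and 1.47 and 2.68 CPM in seminal vesicle. Both seminal vesicle values were above both testis values, with a change of 5.16-fold (log2 fold change 2.37 ± 0.50, adjusted p = 0.0047). Its partner ppk11 had 2 and 3 counts in testis and 6 and 6 in seminal vesicle, too few for the test. Since that annotation is newer than the one used for counting, the split of reads between them is uncertain. Both genes together had 18 counts in testis and 55 in seminal vesicle, and seminal vesicle over testis gave a count ratio of 4.77 (95% counting interval 2.76 to 8.64). The adjacent ppk18, which lies 158 bases away on the same strand, had 2 and 1 counts in testis and 8 and 5 in seminal vesicle, a count ratio of 6.77 (counting interval 1.86 to 37.0). It was not tested with the filter in place and was called higher in seminal vesicle without it.

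The other member higher in seminal vesicle was ppk3 (FBgn0050181; 2R, 23538631 to 23540773, minus strand), a gene without a well described role. It had 0 and 1 counts in testis and 23 and 10 in seminal vesicle, or 1.88 and 1.07 CPM there. With a testis total of 1 count, its size is best given as a count ratio over testis, 51.6 (counting interval 8.63 to 2097), with adjusted p = 0.00136 in the fit. The fitted change, 39.3-fold, turns on that count: it was 23.7-fold without testis replicate 1 and 160-fold without replicate 2. The gene next to it, bw, which encodes an eye pigment precursor transporter, lies 131 bases away on the same strand. The bw level was 1.99 and 2.04 CPM in testis and 106 and 23.5 CPM in seminal vesicle (log2 fold change 5.0 ± 0.80, adjusted p = 0.00164). In both genes seminal vesicle replicate 1 was the higher of the pair, for ppk3 on 23 and 10 counts. That order was not particular to them: summed muscle, blood cell, tracheal, accessory gland and ejaculatory markers were also higher in replicate 1. Summed neuron, glial, fat body, germline, and cyst cell and hub markers were higher in replicate 2.

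The water taste receptor gene ppk28 (FBgn0030795; X, 16806068 to 16808515, plus strand) was counted at a low level in all 4 libraries. It stood at 0.965 and 0.933 CPM in testis and at 1.55 and 1.61 CPM in seminal vesicle. The groups did not overlap, yet the change did not pass the test (1.66-fold, log2 fold change 0.73 ± 0.33, adjusted p = 0.0795). The count ratio of 1.66 has a counting interval of 0.994 to 2.78, and the direction of the change turned with spike-in scaling (log2 fold change -0.32). The whole of ppk28 lies inside a noncoding gene on the other strand, asRNA:CR44053, which had 12 and 9 counts in testis and 0 and 1 in seminal vesicle.

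No read was counted for ppk23, ppk25 and ppk29, the subunits of pheromone-sensing taste neurons, nor for ppk7, ppk9, ppk14, ppk15, ppk27 and ppk31. The pain channel subunits ppk and ppk26 had 6 and 2 counts over the 4 libraries. Nach, which acts with ppk11 in clearing liquid from the newly formed airways, had 1 count. Of the 13 members that were counted but not tested, 6 had 3 or fewer counts in all (ppk8, ppk17, ppk21, ppk24, ppk26 and Nach), and 7 had 6 to 33 (ppk, ppk11, ppk12, ppk13, ppk18, ppk20 and ppk22). Of these 7, ppk12, ppk13 and ppk22 had count ratios of 1.17, 1.12 and 1.56, seminal vesicle over testis, with counting intervals that include 1. The highest was ppk20, with 7 and 18 counts in testis and 1 and 7 in seminal vesicle, where the libraries of the 2 tissues overlapped.

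On 3R, ppk21, ppk20, ppk30 and ppk19 lie within 9445 bases, with the odorant-binding protein gene Obp99a between ppk30 and ppk19. Within that stretch ppk19 was higher in testis by 18.0-fold and ppk30 by 1.98-fold, ppk20 was too low to test and ppk21 had 3 counts, all in testis replicate 1. Obp99a, 121 bases before ppk19 on the same strand, was abundant in both tissues, at 289 and 343 CPM in testis and 249 and 319 CPM in seminal vesicle, and did not pass the test (log2 fold change -0.15 ± 0.27, adjusted p = 0.608). The ppk6 gene sits between Hacl and CG9864 on the same strand. Both flanking genes were higher in seminal vesicle, Hacl by 3.0-fold and CG9864 by 3.38-fold (adjusted p = 0.000354 and 0.00235), while ppk6 was higher in testis. Beside ppk10, loh on the other strand was 7.78-fold higher in seminal vesicle (adjusted p = 0.000119) and LManI on the same strand 3.57-fold higher in testis (adjusted p = 0.00257). Other neighbours had the same call as their member: Mkrn1 and Rpn10 beside ppk5 were higher in testis by 2.2-fold and 1.59-fold (adjusted p = 0.0062 and 0.031), and IP3K1, which lies 7353 bases from ppk16, was 29.2-fold higher in seminal vesicle (adjusted p = 3.35e-05). Beside rpk, Dlip2 on the other strand was 1.64-fold higher in seminal vesicle (adjusted p = 0.0323). Karybeta3 on the same strand did not pass the test (adjusted p = 0.349). In all, 5 of 16 pairs of a called member and an adjacent gene that does not overlap it had the same call. The pairs include Gr59e, ppk18 and ppk20, which were not tested, and hold Obp99a beside both ppk30 and ppk19. Of all genes tested, 44.5% were called towards testis and 42.1% towards seminal vesicle. Next to the 8 called members lie 13 genes outside the family, of which 3 were higher in testis, 6 in seminal vesicle, 3 not called and 1 not tested. Genes that share exon bases with a called member are outside these counts. Of those, asRNA:CR44155 opposite rpk and Bub3 opposite ppk19 were higher in testis, like their members. For Bub3 the log2 fold change was -0.48 ± 0.15 (adjusted p = 0.0233). The other, ppk11 over ppk16, was not tested.

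**Figure D4:**
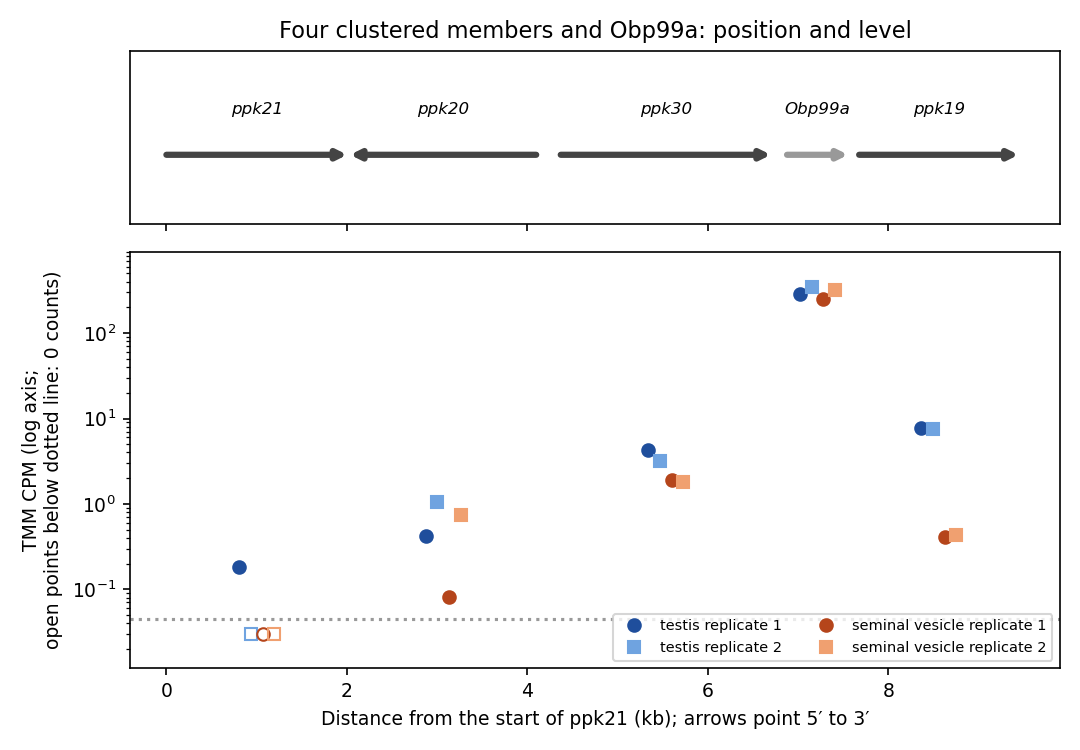
Positions of ppk21, ppk20, ppk30, Obp99a and ppk19 (upper panel, arrows 5′ to 3′, distance in kb from the start of ppk21) and their TMM CPM in each library (lower panel, log axis, points shifted sideways within a gene for legibility, open points 0 counts). The testis points of ppk19 and ppk30 lie above their seminal vesicle points, while those of Obp99a overlap.

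Predicted proteins of the 31 members ran from 421 to 606 residues with a median of 535, and the members lie on 2L (9), 2R (7), 3L (3), 3R (9) and X (3). The 6 testis-high members came from 2L, 2R, 3L and 3R and code for 457 residues (ppk30) to 568 residues (rpk). Per kilobase of exon the order in testis was ppk6 and rpk, then ppk19 and ppk10, then ppk30 (1.95 ± 0.401 CPM per kilobase), then ppk5 (0.515 ± 0.1) and ppk28 (0.433 ± 0.0102). Neighbours named together in that order did not differ beyond their spread, except that the gap between ppk19 and ppk10 was larger than the SD of either. In seminal vesicle the order was rpk (1.89 ± 1.21), ppk6 (1.29 ± 0.691), ppk30 (0.979 ± 0.0207), ppk3 (0.917 ± 0.354), ppk10 (0.801 ± 0.124) and ppk28 (0.721 ± 0.0183 CPM per kilobase). Each gap between adjacent genes was smaller than the larger SD of the pair. The levels of ppk30 and ppk28 lay further apart than the SD of either. The level of ppk19 (0.272 ± 0.00947 CPM per kilobase) lay below all of these genes. The exon length of ppk16 is shared with ppk11, so it was left out of the order.

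Other channel genes gave a mixed picture. Of 7 tested genes among 10 other sodium channels, the sodium leak channel and their subunits, 6 stood higher in testis and 1 in seminal vesicle, with a median log2 fold change of -3.39. The sodium channel gene para was also on the list but had no matching gene row. Of all genes tested, 44.5% were called towards testis and 42.1% towards seminal vesicle. The low-count filter shaped this list too: unc79, Mid1, tipE and Teh4 passed it through testis alone and had to differ. The largest changes were in auxiliary subunits of the leak channel: unc79 had 237 testis counts against 3 (count ratio, testis over seminal vesicle, 50.6, counting interval 17.1 to 247) and Mid1 had 102 against 2 (count ratio 32.6, counting interval 8.81 to 273). The voltage-gated channel relative NaCP60E stood at 12.5 ± 0.671 and 6.8 ± 2.35 CPM (adjusted p = 0.0207). The 1 gene higher in seminal vesicle was Teh1, an auxiliary channel subunit gene (3.29 ± 0.216 and 5.69 ± 1.35 CPM, adjusted p = 0.033), and no gene of this list was called higher in seminal vesicle with library-size or spike-in scaling, with DESeq2, without a low-count filter or without either testis library. Among 9 other touch and pain channels, 7 were tested, with 4 higher in seminal vesicle and 2 in testis, at a median log2 fold change of 1.15. Of these, Pzl and TrpA1 passed the filter through testis alone and nompC through seminal vesicle alone. Tmem63 rose from 20.2 ± 2.32 to 142 ± 15.8 CPM and pain from 13.8 ± 0.219 to 30.7 ± 7.0 CPM, from testis to seminal vesicle (adjusted p = 9.69e-05 and 0.0024). In the reverse direction Pzl, a relative of the touch channel gene Piezo, had 746 counts in testis and 2 in seminal vesicle (count ratio 239, counting interval 65.9 to 1975), and TrpA1, a heat and irritant channel gene, had 61 and 2 (count ratio 19.5, counting interval 5.18 to 165).

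Taste receptor and courtship genes, and genes of stomatin, prohibitin and Nedd4 type, were also set beside the family. Of 9 taste and courtship genes 5 were tested, 4 stood higher in testis and 1 in seminal vesicle, with a median log2 fold change of -3.09. Among the 4, Gr33a, Gr64f and Ir25a passed the low-count filter through testis alone and had to differ. The shares over all genes tested were 44.5% towards testis and 42.1% towards seminal vesicle. The courtship regulator fru stood at 28.3 ± 0.969 CPM in testis and 6.8 ± 2.81 CPM in seminal vesicle and the sex-determination gene dsx at 2.8 ± 1.41 and 32.6 ± 0.676 CPM (adjusted p = 0.000863 and 0.000177). The sugar receptor gene Gr64f had 66 testis counts against 1 and the co-receptor gene Ir25a 102 against 2 (count ratios, testis over seminal vesicle, 42.2 and 32.6, with counting intervals of 7.32 to 1694 and 8.81 to 273). Stomatin-domain proteins partner channels of this family in *C. elegans*, and Nedd4-type ubiquitin ligases remove them from the membrane in mammals. The list of 11 genes also took in the prohibitin genes Phb1 and Phb2, and whether any of its genes acts on pickpocket channels was not tested. Of the 11 genes 10 were tested for a change, with 7 higher in testis, 3 in seminal vesicle and a median log2 fold change of -0.85. Phb1, Phb2 and Stoml2 were among the 7. Of the 3, CG33253 passed the filter through seminal vesicle alone. Mec2, the fly gene named after the worm stomatin, was 54.3-fold higher in seminal vesicle (1.28 ± 0.156 against 69.7 ± 3.11 CPM, adjusted p = 3.12e-05), and CG14644 was 23.2-fold higher in testis (122 ± 1.95 against 5.32 ± 1.87 CPM, adjusted p = 5.99e-05). The most abundant of the list were Phb2 (272 ± 31.0 against 108 ± 2.14 CPM) and Smurf (199 ± 12.6 against 111 ± 32.6 CPM), both higher in testis (adjusted p = 0.00266 and 0.0331).

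**Figure D5:**
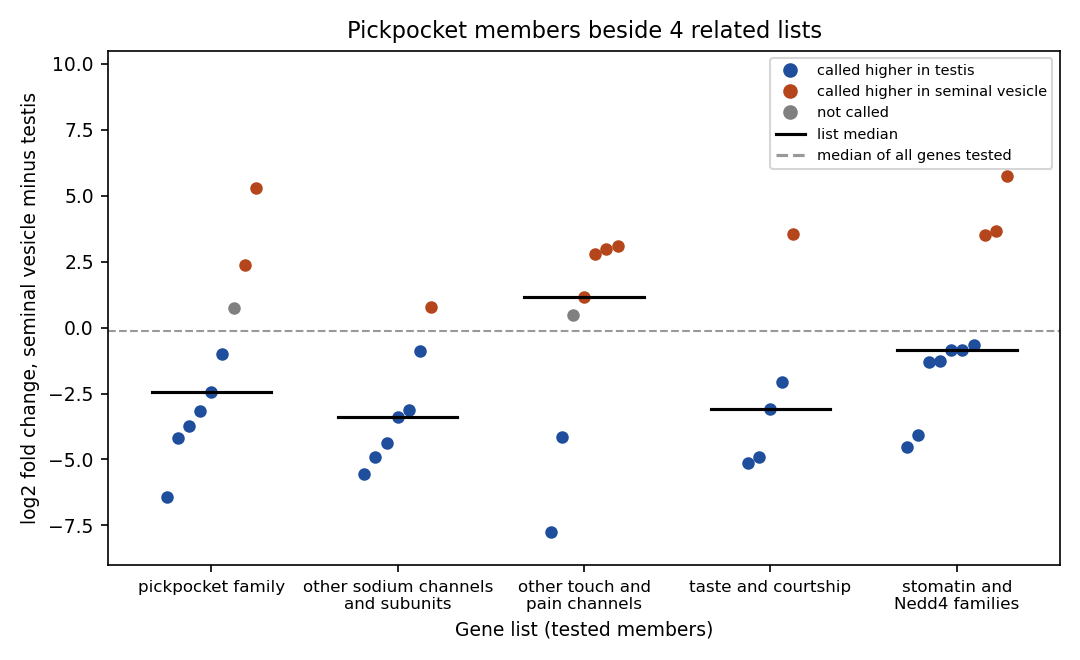
Log2 fold change, seminal vesicle minus testis, of the tested members of the pickpocket family and of 4 related lists (points, coloured by call), with each list's median (black line) and the median of all genes tested (dashed line, -0.11). The medians are -2.44 for the pickpocket family, -3.39 for other sodium channels, 1.15 for touch and pain channels, -3.09 for taste and courtship genes and -0.85 for stomatin and Nedd4 families, prohibitin genes included. Each list holds genes that passed the low-count filter through testis alone or seminal vesicle alone.

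Since pickpocket channels are best known from neurons, markers of neurons and of other cells are given beside these results. Of 17 neuron markers 10 were tested, 4 higher in seminal vesicle, 4 in testis and 2 not called. Their summed level was 56.5 and 57.8 CPM in testis and 94.1 and 120 CPM in seminal vesicle, where unc-13 and nSyb together made most of it. The synaptic genes unc-13 (18.8 and 18.1 against 44.2 and 63.0 CPM) and nSyb (9.59 and 7.23 against 20.8 and 31.3 CPM) were higher in seminal vesicle, and the active zone gene brp (11.5 and 15.8 against 2.12 and 3.11 CPM) was higher in testis. The pan-neuronal gene elav, which was outside the rule for named genes and was chosen after its values were seen, stood at 1.1 ± 0.0678 CPM in testis and 10.2 ± 1.09 CPM in seminal vesicle (adjusted p = 9.09e-05). Of the other tested neuron markers outside that rule, Vmat was higher in seminal vesicle and Gad1, Tbh and Appl in testis, while cpx and futsch were not called. Syt1, fne and onecut were not tested, with 17, 4 and 17 counts in testis against 2, 2 and 6 in seminal vesicle. VGlut had no counts in seminal vesicle and 9 in testis, and VAChT had 1 count in all. Summed levels of the markers of other cells are given in the same order, testis against seminal vesicle. Summed muscle markers stood at 176 and 204 against 3844 and 2895 CPM, glial markers at 19.1 and 19.4 against 262 and 296 CPM, and blood cell markers at 4.95 and 6.18 against 259 and 166 CPM, in which He had no count. Most of the glial sum was moody (261 and 294 CPM in seminal vesicle), while repo stood at 1.14 and 1.07 CPM there. Most of the blood cell sum was Pxn (248 and 161 CPM), while Hml stood at 9.14 and 3.75 CPM. All 2 glial and 2 blood cell markers tested were higher in seminal vesicle, as were 2 of 3 tracheal, 2 of 3 fat body, 3 of 5 accessory gland and 1 of 5 cyst cell and hub markers, while 1 accessory gland and 3 cyst cell and hub markers were higher in testis. Of all genes tested, 42.1% were called towards seminal vesicle and 44.5% towards testis, so a few calls in either direction are common for genes in general. Tracheal markers summed to 15.6 and 16.2 against 28.4 and 20 CPM, and fat body markers, of which Fbp1 had no count, at 44.9 and 49.0 against 160 and 207 CPM. The summed accessory gland markers were 24.4 and 21.9 against 47.3 and 21.2 CPM, the ejaculatory markers 42.7 and 40.5 against 1438 and 1156 CPM, and the cyst cell and hub markers 87.0 and 93.0 against 515 and 562 CPM. In that last list Fas3 alone made 466 and 511 CPM of the seminal vesicle sums. The part of any of these cell types in the pickpocket values was not tested.

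Scaling each library by its spike-in counts moved the median log2 fold change of all genes by -1.1 (library size alone, by -0.38). With it 3272 genes were called higher in seminal vesicle against 6372 in testis, compared with 4944 and 5223. Each tissue had received a different spike-in pool, and the effects of pool and tissue cannot be told apart. The same 6 members stayed called towards testis and the same 2 towards seminal vesicle, with rpk at a log2 fold change of -4.20 and ppk16 at 1.35.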

How the data were processed

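The authors deposited raw read counts per gene for each of the 4 libraries. Per the labels, stranded poly(A) libraries were made from 200 ng of total RNA and read from one end for 50 bases, and the series text names FlyBase release 6.06. CASAVA 1.8.2, TopHat2 2.1.0 and HTSeq 0.6.1p1 are listed in the submitters' processing notes, without settings. Each file held 17409 gene, 96 spike-in and 5 summary rows, and the last 2 kinds stayed out of library sizes and tests. Reads in the ambiguous or no-feature rows came to 5.11% and 5.10% in testis and 2.98% and 3.0% in seminal vesicle. Symbols were matched by FlyBase identifier (17172 of 17409), and positions and exon lengths come from a newer Ensembl annotation of the same assembly. Of the genes planned for the lists, para, wupA and btl had no gene row under their current identifiers. The entries nos and Peb matched no symbol. All 5 were left out.

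The test was the quasi-likelihood F test of edgeR 4.0.16 in R 4.3.3 with robust dispersions and TMM factors, on genes kept by filterByExpr, at a threshold of 0.05. That filter asked for 15 counts in all and for 0.728 CPM before TMM scaling, the equivalent of 10 counts, in at least 2 of the libraries. The standard error is the log2 fold change over the square root of F. Count ratios are per effective library size with exact conditional binomial 95% intervals, which hold counting error alone, as PCR copies of a molecule cannot be recognised in these reads. In simulated counts 41% of genes planted at 2-fold and 96% at 4-fold were recovered in a run of 11409 genes, and 0.125% of unchanged genes were called. The simulation changed 200 genes, with means pooled over the tissues and the same dispersion for every gene. In the data 86.6% of genes were called, so these rates check the procedure and are not the rates of the test in these data. Alternatives were RLE and library-size scaling, spike-in factors, other filters, DESeq2 1.42.0, limma 3.58.1 with voom, a threshold of 0.01, the replicate number as a block, other detection limits, and each library left out, with the same genes tested.

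Every member is accounted for. Library values are given for members called or with 10 counts in both libraries of a tissue. From each of the other 4 lists the text names the 2 most abundant genes and the 2 called genes with the largest change, and from the marker lists up to 3 abundant genes and those at 0. The members and lists were chosen with earlier results of these data known. That equal replicate numbers share a dissection day is inferred from the series text. Replicate differences correlated between the tissues at 0.0705 over genes. Each replicate is a separate dissection, and no label ties a testis library to a seminal vesicle library from the same males.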

Additional observations from a re-analysis of the deposited data

How the results depend on the processing

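The 6 testis calls and 2 seminal vesicle calls among the members were kept with RLE, library-size and spike-in scaling, without a filter and with limma voom. They were kept with the replicate block too, under which all genes gave 4834 calls towards seminal vesicle and 5122 towards testis, and the stomatin and Nedd4 list gave 6 genes higher in testis in place of 7. A filter of 5 CPM in 2 libraries left 4 testis members tested and called, and 0 members higher in seminal vesicle, because ppk3, ppk5, ppk16, ppk28 and ppk30 were no longer tested. No filter added ppk18 as a further member higher in seminal vesicle. The ppk30 call was lost with DESeq2, at a threshold of 0.01 and without either testis library, so that leaving out libraries gave 5 to 6 members higher in testis and 2 in seminal vesicle each time. The log2 fold change of ppk28 was -0.32 with spike-in factors (adjusted p = 0.574), a reversal, where all genes gave 3272 higher in seminal vesicle. Detection in both libraries at 1 count or more gave 14 members in testis and 16 in seminal vesicle. Among other sodium channels, 0 were higher in seminal vesicle with library size alone, with spike-in factors, without a filter, at 5 CPM, with DESeq2 and a threshold of 0.01, and 0 to 1 with a library left out, while 5 CPM left 3 higher in testis. It left 1 touch and pain channel and 1 taste and courtship gene higher in testis. Stomatin and Nedd4 genes higher in testis numbered 4 at the 0.01 threshold and 4 to 7 with a library left out. Fits with a library left out keep 1 library in a tissue, which is assumed to vary like the other tissue. Of the 22 members that were not tested, 9 had no count in any library, and low depth and absence of transcript cannot be told apart there.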
